A study of Mus musculus with 8 samples.

Results

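Pim1, Pim2 and Pim3 were followed in ovarian tumours of mice given the JAK inhibitor AZD1480. They were taken as every array probe that is not a control and whose gene name is one of these symbols. This gave 3 of the 27240 genes named on the array and 3 of its 39429 probes, with 1 probe and 1 spot per gene, found by name alone. The tumours came from female C57BL/6 mice of the genotype written C57BL/6JTgMISIIR-TAg, whose transgene drives SV40 T antigen from the promoter of Amhr2, the gene for the receptor of Müllerian inhibiting substance (MISIIR). The 4 tested mice received AZD1480, an inhibitor of JAK1 and JAK2, at 30 mg/kg, and the 4 control mice received its vehicle. All 8 mice carried the transgene and tumours of about 500 mm3, and tumour tissue was taken 6 h after dosing. The replicates are separate mice, with 1 one-colour array per tumour.

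Pim kinases are serine/threonine kinases named after the proviral integration sites of Moloney murine leukaemia virus. They have no known regulatory domain and are active once made, so their activity follows the amount of transcript and protein. Cytokine receptors induce them through JAK kinases and the transcription factors STAT3 and STAT5, and their transcripts and proteins are short-lived. Their substrates include the death promoter Bad and the cell cycle inhibitors p21 (Cdkn1a) and p27 (Cdkn1b), and through these they favour survival and division.

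The arrays lay on 2 slides, each with 2 AZD1480 and 2 vehicle arrays: replicates 1 and 2 of each group on slide 1, and 3 and 4 on slide 2. Between 66.9% and 76.4% of the spots of an array were well above background. The 75th percentile of the processed intensity, used to scale each array, ran from 4706 to 5795 for the slide 1 arrays and from 1587 to 2783 for those of slide 2. AZD1480 replicate 1 stood apart: its mean correlation with the other arrays was 0.894, the lowest of the 8. The Pim differences between treatments, the correlations between Pim genes and the list medians are therefore given with and without it. Other values are given without it where this was computed and they moved by over 1.5 times. The epithelial markers, 7 of 7, were measured in these tumours. Their mean log2 value relative to the vehicle mean was -1.37 to -0.12 in AZD1480 tumours and -1.0 to 1.0 in vehicle tumours.

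No Pim transcript passed the test between AZD1480 and vehicle. Pim1 was 1.59-fold higher in the mean of the AZD1480 tumours, with overlapping groups, and the intervals of all 3 differences include 0. The signs of Pim2 and Pim3 turned when AZD1480 replicate 1 was left out. By limma with Benjamini-Hochberg adjustment over 28330 probes, 0 of the 3 Pim probes had an adjusted p under 0.05, and 0 of them had an unadjusted p under 0.05. Of all probes, 0% passed the adjusted threshold, while 2.02% were higher and 1.62% were lower in AZD1480 tumours at an unadjusted p under 0.05. In 0 of the 3 Pim genes did all AZD1480 tumours lie on one side of all vehicle tumours, while 1.36% of all probes were higher and 1.25% lower in this way. An exact permutation test of 4 against 4 arrays cannot give a p below 0.0286.

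The signal of each gene is the brightness of one 60-base probe, and the following sequences show which stretch of each transcript was read. They are printed 5′ to 3′ as deposited, with nothing singled out by capitals. The Pim1 probe is given whole and the Pim2 and Pim3 probes by their last 30 bases.
Pim1: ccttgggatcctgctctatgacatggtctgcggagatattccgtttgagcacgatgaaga
Pim2: acctggttatacaggttgttaaaaatccag
Pim3: gtctcttatttatggtgtgatcaccctgga
On the mm9 build the array files place these probes at chr17:29630740-29630799 for Pim1, chrX:7459678-7459737 for Pim2 and chr15:88695626-88695685 for Pim3. Whether a probe lies in coding sequence or a UTR was not analysed here. Their GC contents are 50%, 43.3% and 55.0%. The longest run of bases that any pair of whole probes shares is 7, between Pim1 and Pim3, so no stretch of a probe beyond that is common to the family. Brightness also depends on the probe, so levels were not compared between the 3 genes.

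Pim1, the member most often described as a STAT-induced gene, was at -1.09, -1.99, -2.23 and -1.31 in AZD1480 replicates 1 to 4, as log2 processed intensity minus the array's 75th percentile. In vehicle replicates 1 to 4 it was at -1.61, -1.91, -3.04 and -2.73. AZD1480 replicates 1 and 4 lay above every vehicle tumour, the other two AZD1480 tumours lay within the vehicle range, and vehicle replicates 3 and 4, both on slide 2, were the lowest of all. All 4 AZD1480 tumours lay above the vehicle mean. The means were -1.65 ± 0.55 in AZD1480 tumours and -2.32 ± 0.67 in vehicle tumours (SD, n = 4 each). The log2 difference was 0.67 ± 0.40 (limma's moderated SE), with a 95% interval of -0.25 to 1.58, an unadjusted p of 0.131 and an adjusted p of 0.953. The two-sided exact permutation p was 0.2.

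The Pim1 difference was larger within slide 2 than within slide 1, but the interaction of slide and treatment did not pass. Within slide 2 it was at 1.11 ± 0.40 (limma, unadjusted p = 0.0575, adjusted p = 0.909), and within slide 1 at 0.22 ± 0.42 (limma, unadjusted p = 0.625). The difference between these, slide 2 minus slide 1, was 0.89 ± 0.62 (limma interaction, unadjusted p = 0.205, adjusted p = 0.993). The vehicle tumours averaged -2.88 on slide 2 and -1.76 on slide 1, while the AZD1480 tumours averaged -1.77 on slide 2 and -1.54 on slide 1. The slides thus lay further apart in the vehicle group, and the part of the slide in the Pim1 difference was not tested beyond these values. With slide as a covariate the difference was 0.67 with an SE of 0.33 (limma, adjusted p = 0.841). It was 0.48 without AZD1480 replicate 1 (limma, adjusted p = 0.970).

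Pim2, a shorter family member that is most abundant in lymphoid and other blood cells, was at -4.56, -2.24, -1.44 and -1.16 in AZD1480 replicates 1 to 4. In vehicle replicates 1 to 4 it was at -2.20, -2.44, -1.66 and -1.20. The first AZD1480 tumour lay far below all the others, and the remaining 3 lay within or just above the vehicle range. The means were -2.35 ± 1.55 in AZD1480 tumours and -1.87 ± 0.56 in vehicle tumours (SD, n = 4 each). The log2 difference was -0.48 ± 0.73 (95% interval -2.15 to 1.20; limma, adjusted p = 0.957), and the two-sided exact permutation p was 0.743. Without AZD1480 replicate 1 the sign turned, at 0.26 ± 0.38 (limma, adjusted p = 0.975).

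Pim2 also lay higher on slide 2, though not past the adjusted threshold. In both groups every array of slide 2 lay above both arrays of slide 1. The mean of slide 2 lay above that of slide 1 by 0.89 in vehicle tumours. In AZD1480 tumours the gap was 2.11, with AZD1480 replicate 1 on slide 1, and a gap without that array is not given here. The log2 difference between slide 2 and slide 1, with treatment in the fit, was 1.50 ± 0.53 (limma, unadjusted p = 0.0265, adjusted p = 0.286). Pim2 was thus 1 of the 3 Pim probes called at that unadjusted threshold, higher on slide 2, where 7.98% of all probes were higher and 6.64% lower. By the adjusted threshold limma called 0% of all probes. The difference between AZD1480 and vehicle was 0.13 within slide 2 and -1.08 within slide 1, where AZD1480 replicate 1 lies. Their difference did not pass (interaction 1.21 ± 1.03, limma, unadjusted p = 0.286). At an unadjusted p under 0.05 the interaction called 0 of the 3 Pim probes, against 1.52% of all probes.

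Pim3, the member best known from epithelial and liver tumours, was at 0.72, -1.29, -0.69 and -0.89 in AZD1480 replicates 1 to 4. In vehicle replicates 1 to 4 it was at 0.23, -0.88, -1.16 and -0.97. Replicate 1 was the highest array in each group, and the other 3 tumours of the groups overlapped. The means were -0.54 ± 0.88 in AZD1480 tumours and -0.70 ± 0.63 in vehicle tumours (SD, n = 4 each). The log2 difference was 0.16 ± 0.48 (95% interval -0.96 to 1.28; limma, adjusted p = 0.977), with a two-sided exact permutation p of 0.686. Without AZD1480 replicate 1 it was -0.26 ± 0.36 (limma, adjusted p = 0.975), so this sign turned as well.

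**Figure D1:**
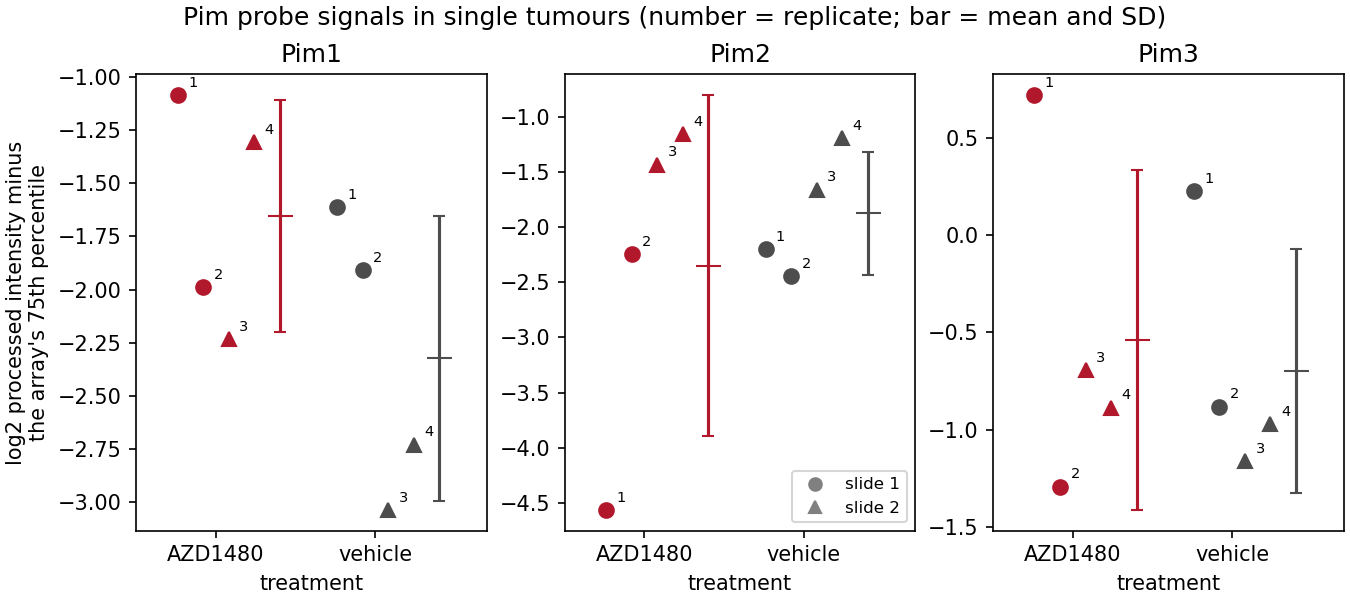
Log2 processed intensity minus the array's 75th percentile for Pim1, Pim2 and Pim3 in AZD1480 tumours (left) and vehicle tumours (right), each panel with its own y axis. Points are single tumours numbered by replicate, circles on slide 1 and triangles on slide 2, and bars are means ± SD. The groups overlap in all panels, and AZD1480 replicate 1 lies at -4.56 for Pim2 and 0.72 for Pim3.

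All 3 Pim spots were well above background on 8 of 8 arrays, and none was saturated or flagged. The raw mean intensity over the local background was 9.35 to 55.2 for Pim1, 6.65 to 30.5 for Pim2 and 23.3 to 202 for Pim3. Pim2 in AZD1480 replicate 1 therefore still stood clear of background, with a processed intensity of 199. The SD pooled over both groups was 0.61 for Pim1, 1.16 for Pim2 and 0.76 for Pim3, against a median of 0.41 over all probes. Of all probes, 67.8%, 88.6% and 75.8% had a smaller SD than Pim1, Pim2 and Pim3. The Pim2 SD takes in AZD1480 replicate 1: it was 1.55 in AZD1480 tumours and 0.56 in vehicle tumours. Without that array limma's SE of the Pim2 difference fell from 0.73 to 0.38. Pooled SDs without it were not computed.

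**Figure D2:**
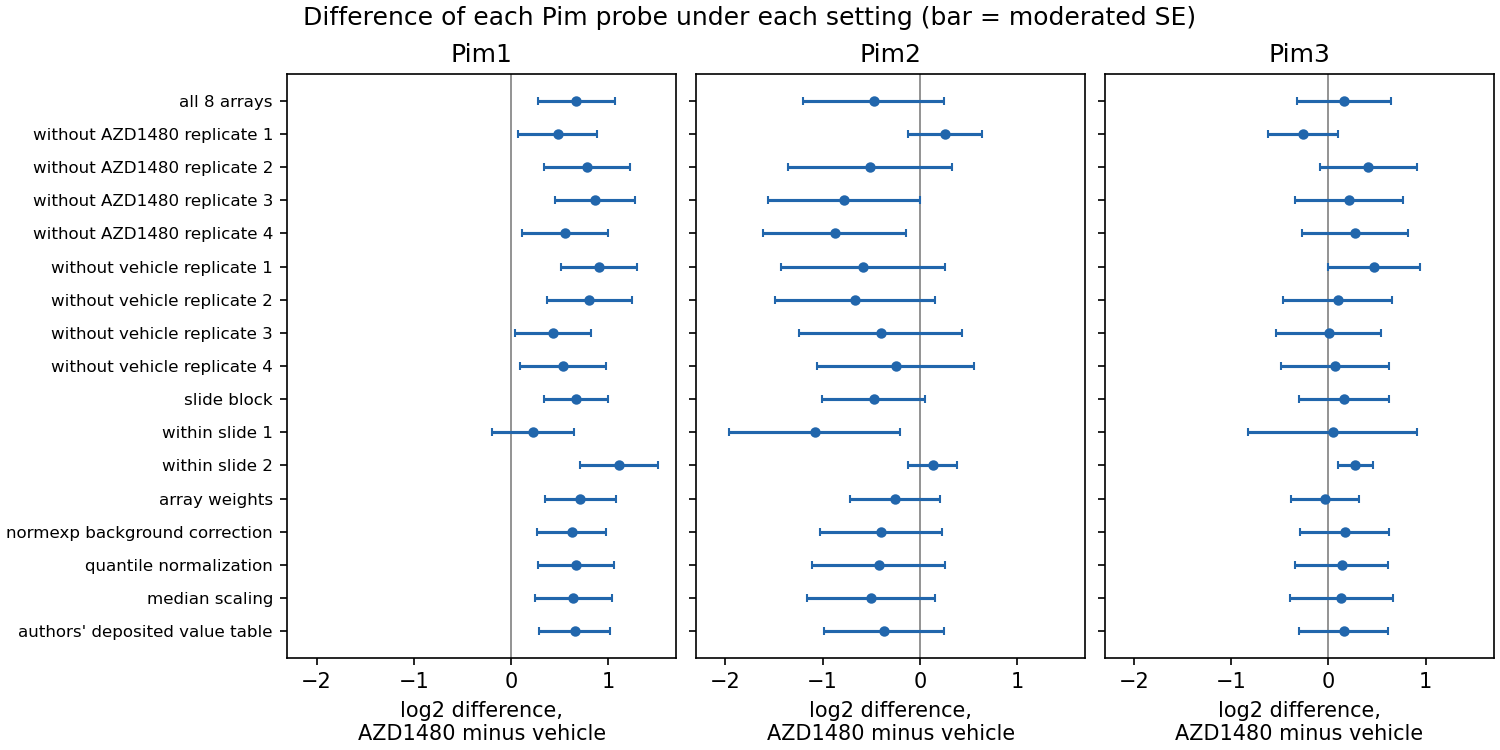
Log2 difference, AZD1480 minus vehicle, of each Pim probe (x axis) with all 8 arrays and under other settings (rows). Points are the differences and bars limma's moderated SEs. Pim1 stays above 0 in every row drawn, between 0.22 and 1.11, whereas Pim2 and Pim3 lie on both sides of 0.

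The same fits called 0 of the 3 Pim probes at an unadjusted p under 0.05 by limma, and 0 at the adjusted threshold, in each of the following settings. Without AZD1480 replicate 1, 2.24% of all probes were higher and 1.87% lower in AZD1480 tumours at the unadjusted threshold. With slide as a block these shares were 2.71% and 1.97%, and with the block and without that array 2.68% and 2.31%. Within slide 1 they were 0.724% and 2.79%, and within slide 2 they were 1.67% and 1.54%.

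The responses of the family members were not shown to differ from each other. The log2 difference of Pim1 exceeded that of Pim2 by 1.14 (two-sided exact permutation p = 0.429, adjusted over the 3 pairs 0.643). It exceeded that of Pim3 by 0.51 (exact p = 0.2, adjusted 0.6), and that of Pim3 exceeded that of Pim2 by 0.63 (exact p = 0.771, adjusted 0.771). These comparisons do not depend on how an array was scaled, since a constant per array cancels. Omitting AZD1480 replicate 1 took the excess of Pim1 over Pim2 to 0.22 (exact adjusted p = 0.8), that of Pim1 over Pim3 to 0.74 (exact adjusted p = 0.343) and that of Pim3 over Pim2 to -0.52 (exact adjusted p = 0.686).

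No correlation between Pim genes over the 8 tumours passed after adjustment. For Pim1 and Pim3 it was r = 0.65 (two-sided exact permutation p = 0.078, adjusted over the 3 pairs 0.116), with rho = 0.64 (exact p = 0.096, adjusted 0.289). Without the 2 arrays farthest from the Pim1 median r was 0.32. For Pim3 and Pim2 it was r = -0.74 (exact p = 0.049, adjusted 0.116) and rho = -0.33 (exact p = 0.428, adjusted 0.428). This relation rests on AZD1480 replicate 1, since r was -0.19 without that array alone and -0.82 without vehicle replicate 1 alone. Without these 2 arrays, the farthest from the Pim3 median, r was 0.38. Pim1 and Pim2 had r = -0.57 (exact p = 0.142, adjusted 0.142) and rho = -0.36 (exact p = 0.389, adjusted 0.428), and r = -0.21 without the 2 arrays farthest from the Pim1 median. When AZD1480 replicate 1 alone was left out, r was 0.44 for Pim1 with Pim3 and -0.21 for Pim1 with Pim2. The tumours share slides, and within a slide there are too few arrays for a correlation.

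The receptors and signal transducers upstream of the Pim genes held 26 listed and 26 measured genes. By limma 0 of them passed the adjusted threshold, while 0 were higher and 5 were lower in AZD1480 tumours at an unadjusted p under 0.05. Over all 19778 genes, 1.74% were higher and 1.78% lower at that threshold. The 5 were the transcription factor Stat3 (-0.90 ± 0.26), the oncostatin M receptor Osmr (-1.61 ± 0.53), the kinase Jak3 (-0.82 ± 0.28), Stat4 (-0.71 ± 0.27) and Stat2 (-0.53 ± 0.21). Stat5a and Stat5b, the other main activators of Pim transcription, were at 0.31 ± 0.21 and 0.26 ± 0.22. The median of the list was -0.10, against 0.045 over all genes, and -0.078 against 0.023 when AZD1480 replicate 1 was left out. That omission took Osmr to -1.05 and Stat5b to 0.14. This list and those below were chosen with earlier results of these data known. Their counts beside the shares over all genes are therefore descriptions.

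Among 22 other genes that STAT3 or STAT5 is known to induce, all measured, 0 passed the adjusted threshold, 0 were higher and 4 were lower at an unadjusted p under 0.05 by limma. The shares over all genes were 1.74% higher and 1.78% lower. The 4 were cyclin D1 (Ccnd1, -1.58 ± 0.31), the transcription factor Cebpd (-1.34 ± 0.25), the secreted glycoprotein Lrg1 (-1.47 ± 0.43) and the feedback inhibitor Socs3 (-0.84 ± 0.26). The feedback inhibitor Cish, the growth regulator Myc and the survival factor Bcl2l1 were at -0.18 ± 0.79, -0.56 ± 0.30 and 0.16 ± 0.19. The median was -0.20, with 6 genes above and 16 below 0, while of all genes 11181 lay above and 8597 below 0. In the absence of AZD1480 replicate 1 the median was -0.22, with Cish at -0.85 and Myc at -0.28. Socs3, induced through the same pathway as Pim1, was at 0.12, 0.50, 0.75 and 0.03 in AZD1480 replicates 1 to 4 and at 1.65, 0.80, 0.93 and 1.38 in vehicle replicates 1 to 4. All 4 AZD1480 tumours lay below every vehicle tumour in Socs3, whereas the groups overlapped in each Pim gene. The gap in Socs3 was narrow, from 0.75 in AZD1480 replicate 3 to 0.80 in vehicle replicate 2. Without overlap, 1.25% of all probes were lower and 1.36% higher in AZD1480 tumours. The comparison of the Pim genes with Socs3 was chosen after the values were seen. Its p values take no account of that choice, so they serve only as a description. The log2 difference of Pim1 exceeded that of Socs3 by 1.51 (two-sided exact permutation p = 0.0571, adjusted over the 3 Pim genes 0.171). Pim3 exceeded it by 1.00 (exact p = 0.143, adjusted 0.214) and Pim2 by 0.37 (exact p = 0.686, adjusted 0.686). Without AZD1480 replicate 1 these were 1.25 for Pim1, 0.51 for Pim3 and 1.03 for Pim2 (exact adjusted p = 0.229 each).

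Among 17 other inducers and stabilisers of Pim kinases, all measured, 0 were higher and 0 lower at an unadjusted p under 0.05 by limma, and 0 passed the adjusted threshold. The shares over all genes at the unadjusted threshold were 1.74% higher and 1.78% lower. The list held NF-kB subunits, chaperones and RNA-binding proteins, and its median was -0.0031, or -0.085 omitting AZD1480 replicate 1. Its smallest p values belonged to the transcription factor Klf5 (-0.73 ± 0.37), the RNA-binding protein Hnrnpd (0.31 ± 0.20), the transcription factor Ets1 (-0.26 ± 0.18) and the chaperone Hspa1a (1.45 ± 1.23, and 0.51 omitting that array).

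Of 25 genes for Pim substrates and effectors, all measured, 1 was higher and 0 were lower at an unadjusted p under 0.05 by limma, and 0 passed the adjusted threshold. The shares over all genes at the unadjusted threshold were 1.74% higher and 1.78% lower. The 1 higher gene was the cell cycle phosphatase Cdc25c (0.63 ± 0.17). The transcription factors Foxo3 and Foxo1 were at 0.53 ± 0.32 and -0.49 ± 0.30, and Cdkn1a was at 0.68 ± 0.43. Bad and Cdkn1b were at -0.025 ± 0.28 and 0.071 ± 0.17. Pim kinases act on these products as proteins, by phosphorylation, which the arrays do not measure. The median was 0.019. When AZD1480 replicate 1 was omitted it was -0.045, with Foxo3 at 0.33, Foxo1 at -0.23, Bad at 0.22 and Cdkn1b at -0.023.

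Hypoxia genes and early-response genes were listed because Pim genes can be induced by low oxygen and by general stimulation. Of the 14 hypoxia genes, all measured, 12 were above 0 and 2 below, with a median of 0.52, while of all genes 11181 lay above and 8597 below 0. By limma 2 were higher and 0 lower at an unadjusted p under 0.05, and 0 passed the adjusted threshold. The shares over all genes at the unadjusted threshold were 1.74% higher and 1.78% lower. The 2 hypoxia genes were the glycolytic regulator Pfkfb3 (1.09 ± 0.45) and the mitochondrial protein gene Higd1a (0.76 ± 0.31). The mitophagy gene Bnip3 and the angiogenic factor Vegfa were at 0.76 ± 0.38 and 1.17 ± 0.59. With AZD1480 replicate 1 omitted the median was 0.42, and Bnip3, Vegfa and Higd1a were at 0.49, 0.59 and 0.51. The mean of the list relative to the vehicle mean was 1.06, -0.23, 0.53 and 0.86 in AZD1480 replicates 1 to 4 and -0.21 to 0.23 in vehicle tumours. AZD1480 replicates 1 and 4, highest in this list, were also the highest in Pim1. Other tumours went the other way: AZD1480 replicate 3, at 0.53 in the list, had the lowest Pim1 of its group (-2.23). Vehicle replicate 4, highest of the vehicle tumours in the list (0.23), had a Pim1 of -2.73. Vehicle replicate 2, lowest of them in the list (-0.21), had a Pim1 of -1.91. The part of hypoxia genes in the Pim1 difference was not tested. Of the 17 early-response genes 16 were measured, 0 were higher and 0 lower at an unadjusted p under 0.05 by limma, and 0 passed the adjusted threshold. Their median was -0.018, and their smallest p values belonged to Fosb (0.42 ± 0.30), Egr2 (-0.56 ± 0.49), Nr4a1 (0.67 ± 0.68) and Atf3 (0.29 ± 0.29), all genes of transcription factors. Leaving out AZD1480 replicate 1, the median was -0.079 and Nr4a1 was at -0.037.

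**Figure D3:**
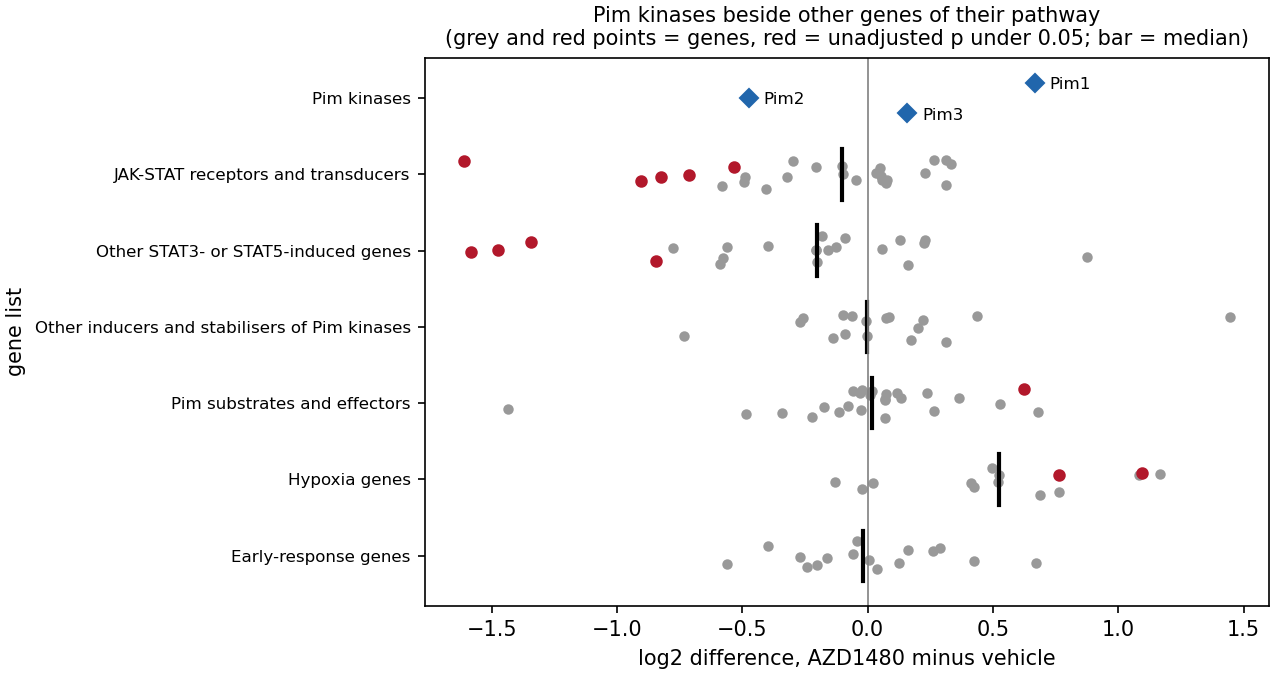
Log2 difference, AZD1480 minus vehicle (x axis), for the 3 Pim genes (diamonds) and the measured genes of 6 lists (rows), red where the unadjusted limma p was under 0.05. Black bars are list medians, which run from -0.20 for other STAT-induced genes to 0.52 for hypoxia genes.

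Some cell type markers were low in AZD1480 replicate 1, as Pim2 was, while in other tumours some of these markers did not follow Pim2. In bulk tissue, fewer cells of a type and less RNA per cell cannot be told apart. In AZD1480 replicate 1, where Pim2 was lowest, the mean of the 11 measured macrophage and monocyte markers (of 12 listed symbols, among them Emr1, an older name of the measured Adgre1) was 1.78 below the vehicle mean on the log2 scale. The same value in the other AZD1480 tumours was -0.40 to -0.01, and in vehicle tumours -0.14 to 0.11. The 5 measured T and NK cell markers (of 11) averaged -1.31 in that tumour, with -0.14 to 0.08 in the other AZD1480 tumours and -0.21 to 0.17 in vehicle tumours. The T and NK markers Cd3g, Cd8a, Trbc2, Ncr1, Klrk1 and Gzmb were not among the tested probes. B and plasma cell markers, 7 of 9 measured, averaged -1.27 in that tumour, with -0.88 to 0.70 in the other AZD1480 tumours and -0.34 to 0.42 in vehicle tumours. As summed intensities relative to the vehicle mean, macrophage markers ranged over 45.5% to 212% in AZD1480 tumours and 95.4% to 111% in vehicle tumours. T and NK markers ranged over 91.9% to 105% in AZD1480 tumours and 88.7% to 106% in vehicle tumours, and B and plasma cell markers over 55.7% to 205% in AZD1480 tumours and 65.7% to 142% in vehicle tumours. AZD1480 replicate 1 had sums of 45.5% for macrophage, 91.9% for T and NK and 57.8% for B and plasma cell markers. Its T and NK sum thus lay within the vehicle range, though the mean log2 value did not. Fibroblast markers, 7 of 7 measured, averaged -1.38 in AZD1480 replicate 1 with a summed intensity of 36.3%, and epithelial markers averaged -1.29 with 44.7%. Over the groups the summed fibroblast markers ranged over 36.3% to 108% in AZD1480 tumours and 84.8% to 127% in vehicle tumours. Summed epithelial markers ranged over 44.7% to 103% in AZD1480 tumours and 54.6% to 158% in vehicle tumours. For some of these markers other tumours went the other way. AZD1480 replicate 4, with fibroblast markers averaging -0.86, had the highest Pim2 of all (-1.16). AZD1480 replicate 3, with the lowest B and plasma cell sum (55.7%), had a Pim2 of -1.44. AZD1480 replicate 2, with the lowest mean of epithelial markers (-1.37), had a Pim2 of -2.24. The part of these cells in the Pim2 values was not tested.

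Granulosa and luteal markers were highest in AZD1480 replicate 1 and vehicle replicate 1, which also had the highest Pim3, but the other tumours did not follow this order. The 4 measured markers of 7, without Cyp19a1, Fshr and Cyp11a1, averaged 2.96 above the vehicle mean in AZD1480 replicate 1 and 2.04 above it in vehicle replicate 1. In the other AZD1480 tumours they averaged -1.39 to -1.17 and in the other vehicle tumours -1.64 to 0.79. The value of 0.79 was that of vehicle replicate 3, which had the lowest Pim3 of the vehicle tumours (-1.16). Their summed intensity ranged over 41.2% to 580% in AZD1480 tumours and 45.9% to 231% in vehicle tumours. The part of these cells in the Pim3 values was not tested. Neutrophil markers, 6 of 9 measured, averaged -0.76 to 0.60 in AZD1480 tumours and -0.70 to 0.40 in vehicle tumours. Fibroblast markers averaged -1.38 to 0.35 in AZD1480 tumours and -0.13 to 0.12 in vehicle tumours. Endothelial markers, 8 of 8, averaged -0.66 to -0.05 in AZD1480 tumours and -0.33 to 0.35 in vehicle tumours. Adipocyte markers, 4 of 5, averaged -3.17 to -1.35 in AZD1480 tumours and -2.59 to 3.87 in vehicle tumours. Red cell markers, 2 of 4, averaged -0.53 to 1.84 in AZD1480 tumours and -1.75 to 2.58 in vehicle tumours.

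**Figure D4:**
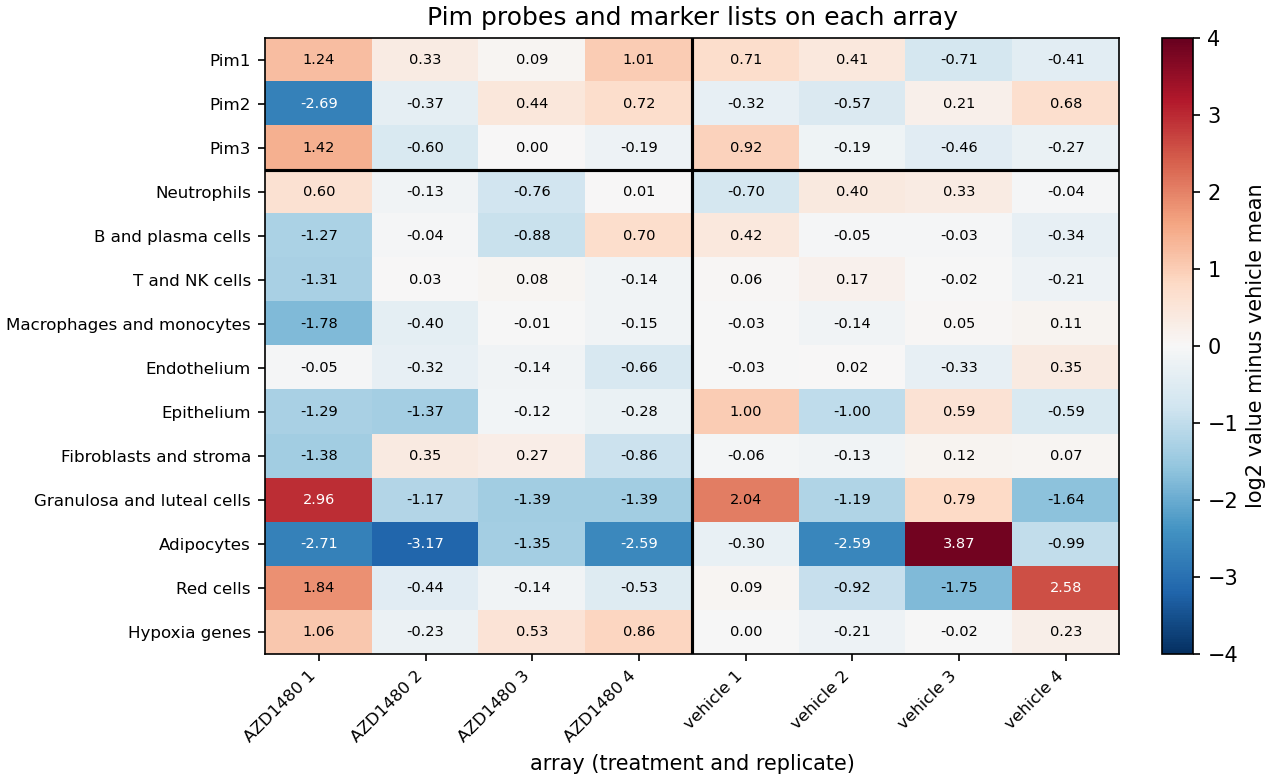
Log2 value minus the vehicle mean on each array (AZD1480 columns left, vehicle columns right) for the 3 Pim probes and the mean of each marker list and of the hypoxia genes (rows). Colour runs from blue (lower) to red (higher), and AZD1480 replicate 1 shows -2.69 for Pim2 beside -1.78 for macrophage markers, and 1.42 for Pim3 beside 2.96 for granulosa markers.

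The genes whose pattern over the 8 arrays was most like that of each Pim gene were taken by Pearson's r among 15514 genes, as a description, since the arrays share slides and tumours. For Pim1 these were Vmn1r204, Chkb, Prss41, Dlk2 and Cd300lg, with r from 0.960 to 0.975, and 62 genes had r above 0.9. For Pim2 those reported here were Dapp1, Spata18, Ptprt and Gfra4, with r from 0.990 to 0.997, and 945 genes had r above 0.9. For Pim3 they were Mxd1, Abcg2, Trim47, Erbb3 and Clspn, with r from 0.985 to 0.994, and 296 genes had r above 0.9. Without AZD1480 replicate 1 these 4 genes of Pim2 had r from 0.950 to 0.984, and those of Pim3 from 0.967 to 0.995.

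The promoter windows of the Pim genes were read for motifs of the factors named above. RefSeq sequences on GRCm38.p6 gave 4 windows from 250 bases before to 50 after a start site, 2 for Pim1 and 1 each for Pim2 and Pim3. The STAT motif TTCNNNGAA, searched on both strands, had 0 matches in these windows, and 8.3% of all 32851 windows held it. The AP-1 motif TGACTCA had 0 matches, with 5.2% of all windows holding it. The motif ACGTG, a form of the core of the hypoxia response element, had 2 overlapping matches, both in the second Pim1 window. They start 58 and 57 bases before the start site and are the palindrome CACGTG read on each strand, so they mark 1 site. Of all windows, 19.6% held ACGTG, and other forms of the core were not searched. The site is shown at chr17:29493015-29493044 on the plus strand of GRCm38.p6, with the matched bases in capitals.
Pim1 second window: gtaaacaggaatCACGTGgtctgaaaccag
A match is a description of the letters and not of binding, and windows of this length leave out more distant regulatory sequence.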

How the data were processed

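RNA from 8 tumours was measured on Agilent arrays in 1 colour. Spots were quantified with Agilent Feature Extraction 9.5.3, per the submitters' processing notes, and per the file headers each spot has raw, background and processed intensity values, the last background-subtracted. The authors also deposited a log2 value table, whose columns have a median of 8.36 and sorted values equal within 0.00057. How its offset was set is not stated here, and it served as an alternative.

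Processed intensities were put on a log2 scale minus each array's 75th percentile over 39429 probes that are not controls. Spots flagged as outliers were left out. Probes well above background on at least 4 of 8 arrays were kept, 28340 in all, and 10 with only flagged spots on an array were dropped. A gene in a list was its brightest kept probe (19778 genes). Treatment was tested in limma (version 3.58.1, R version 4.3.3, two-sided, lmFit with eBayes) as the only term, with Benjamini-Hochberg adjustment over 28330 probes and a threshold of 0.05. The fit was tested on simulated data. Single values had two-sided exact permutation tests over the 70 assignments.

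The members and gene lists were chosen with earlier results of these data known. Named were the Pim probes, the 5 genes most correlated with each, and of each pathway list up to 4 members with the smallest p plus 11 genes of the pathway. Some genes that these rules or lists take in are not reported here. Alternatives were background correction, normalization, filters, slide, array weights, replicate block and leaving out arrays. Only 4 arrays per group limit the precision.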

Additional observations from a re-analysis of the deposited data

How the results depend on the processing

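Of the alternatives run, none brought a Pim probe past the adjusted threshold, and limma called 0 probes and 0 list members under all of them. Unadjusted counts moved, from 572 higher and 458 lower probes with all arrays to 205 (within slide 1) to 1756 (without AZD1480 replicate 3) higher and 303 (without vehicle replicate 3) to 790 (within slide 1) lower.

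Leaving out single arrays gave a log2 difference of 0.43 to 0.90 for Pim1 (lowest without vehicle replicate 3), -0.87 to 0.26 for Pim2 and -0.26 to 0.47 for Pim3. Of these, only the omission of AZD1480 replicate 1 turned the sign of Pim2 and Pim3. With slide as a block and without that array, chosen after seeing the data, Pim2 was at 0.11 and Pim3 at -0.22. Pim2 was at 0.13 within slide 2, and Pim3 at -0.036 with array weights. The cause was not tested. Leaving out single arrays gave pair differences of 0.22 to 1.64 (Pim1 minus Pim2), 0.28 to 0.74 (Pim1 minus Pim3) and -0.52 to 1.15 (Pim3 minus Pim2). It gave correlations of -0.83 to -0.21 (Pim1 with Pim2), 0.44 to 0.80 (Pim1 with Pim3) and -0.82 to -0.19 (Pim3 with Pim2). The lowest of the first, without AZD1480 replicate 4, had an exact adjusted p of 0.039.

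Same-numbered tumours did not all deviate together (r = 0.35, 0.37, 0.14 and -0.060). For AZD1480 replicates 1 and 2 the most similar vehicle tumour was the same-numbered one. For replicates 3 and 4 it was vehicle replicate 4 and vehicle replicate 2. So few tumours cannot tell whether the numbers pair the mice. With the replicate block the differences were 0.67 (Pim1), -0.48 (Pim2) and 0.16 (Pim3), with limma adjusted p of 0.805, 0.833 and 0.860. The block changed no call.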
